A study of Mus musculus with 9 samples.

Results

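The insulin and IGF1 axis was followed in macrophages of mouse visceral fat as 10 genes: the growth factor gene Igf1 and its binding protein Igfbp4, the receptors Insr, Igf1r and Igf2r, the substrate and adaptor genes Irs2 and Grb2, the transcription factors Foxo1 and Foxo3, and Ide, the insulin-degrading enzyme. They were taken by gene symbol from a table of 14905 genes, and all 10 had a row. The cells were sorted as F4/80 and CD11b double positive, that is, by surface proteins that mark macrophages. The libraries came from 5 samples of Nucb2-/- mice (KO) and 4 of wild-type mice (WT), all of C57BL/6 background. Nucb2 encodes nucleobindin-2, the precursor of the peptide nesfatin-1, and the series title sets the question in insulin sensitivity in obesity. The sample labels give neither the age, sex or diet of the mice nor how the deletion was made. The deposited table's name carries the letters HFD, a usual abbreviation for high-fat diet, which no label explains. Whether each library is from a different mouse is not stated. The p-values are therefore set against the variation among libraries, some of which may be technical.

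Insulin and IGF1 bind related receptor tyrosine kinases, which phosphorylate IRS docking proteins. These recruit phosphatidylinositol 3-kinase (PI3K), whose lipid product activates AKT, while the adaptor GRB2 links the same receptors to RAS and the MAP kinases. AKT drives FOXO factors out of the nucleus, and nuclear FOXO raises transcription of genes such as Insr and Irs2 when the hormones are scarce. Macrophages are a local source of IGF1 in many tissues, among them fat.

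Values are normalized counts, that is, reads per gene divided by 1 factor per library, with 1 as the lowest value in the table. Read totals, recovered from the smallest step between values, were 74937719 to 85200098 in the 6 deeper libraries, which are KO replicates 1 to 4 with the first 2 WT replicates, and 51148955 to 55004978 in the 3 shallower ones (KO replicate 5, WT replicates 3 and 4). Nucb2 itself, the check of the labels, was at 1165 to 1752 normalized counts in KO and 3311 to 5233 in WT. The 8 macrophage markers summed to 1287305 to 1496745 in KO and 1284597 to 1445681 in WT, so the sorted type was present in both. Lyz2 alone averaged 809546 in KO and 825447 in WT. Of the 8 markers 0 passed the test used below and 3 had an unadjusted limma p under 0.05, set beside 9.14% of all genes. Adgre1 and Fcgr1 were lower in KO (log2 differences -0.22 and -0.50), and Itgam was higher (0.18). Markers of other cells were also present: 8 fibroblast genes summed to 287895 to 447690 in KO and 201244 to 336565 in WT, 8 mesothelial genes to 6260 to 20834 in KO and 2870 to 8715 in WT, and 8 endothelial genes to 3910.5 to 6918 in KO and 1605.5 to 3633 in WT. Mast cell markers ran the other way: 8 genes summed to 1849.5 to 3492 in KO and 6081 to 10799 in WT. Neither the mast cell sums nor the endothelial ones overlapped between KO and WT. Past the test used below, 4 of the 8 mast cell genes were lower in KO, set beside 0.127% of all genes. The part of these cells in the results was not tested. Values are for the sorted fraction as a whole, in which fewer cells of a type and less RNA per cell cannot be told apart.

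None of the 10 genes differed between KO and WT past the test, and in each of them the KO and WT ranges overlapped. The test was limma on log2 of the normalized count plus 1 with Benjamini-Hochberg adjustment over all 14905 genes. Of all genes, 46 passed, which is 0.309% of those tested (27 higher in KO, 0.181%, and 19 lower, 0.127%), and 469 (3.15%) had ranges that did not overlap. The count of 46 was not stable: it was 0 in the 6 deeper libraries and 5 to 38 with any 1 library left out. At an unadjusted p under 0.05 there was 1 gene of the 10, Grb2, where the whole table had 1363 genes (9.14%). Of the 10 log2 differences 6 lay above 0 and 4 below, with a median of 0.02, the same as the median over all genes. The 95% intervals of 9 genes lay within 1 log2 unit of 0, and that of Foxo3 did not.

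**Figure D1:**
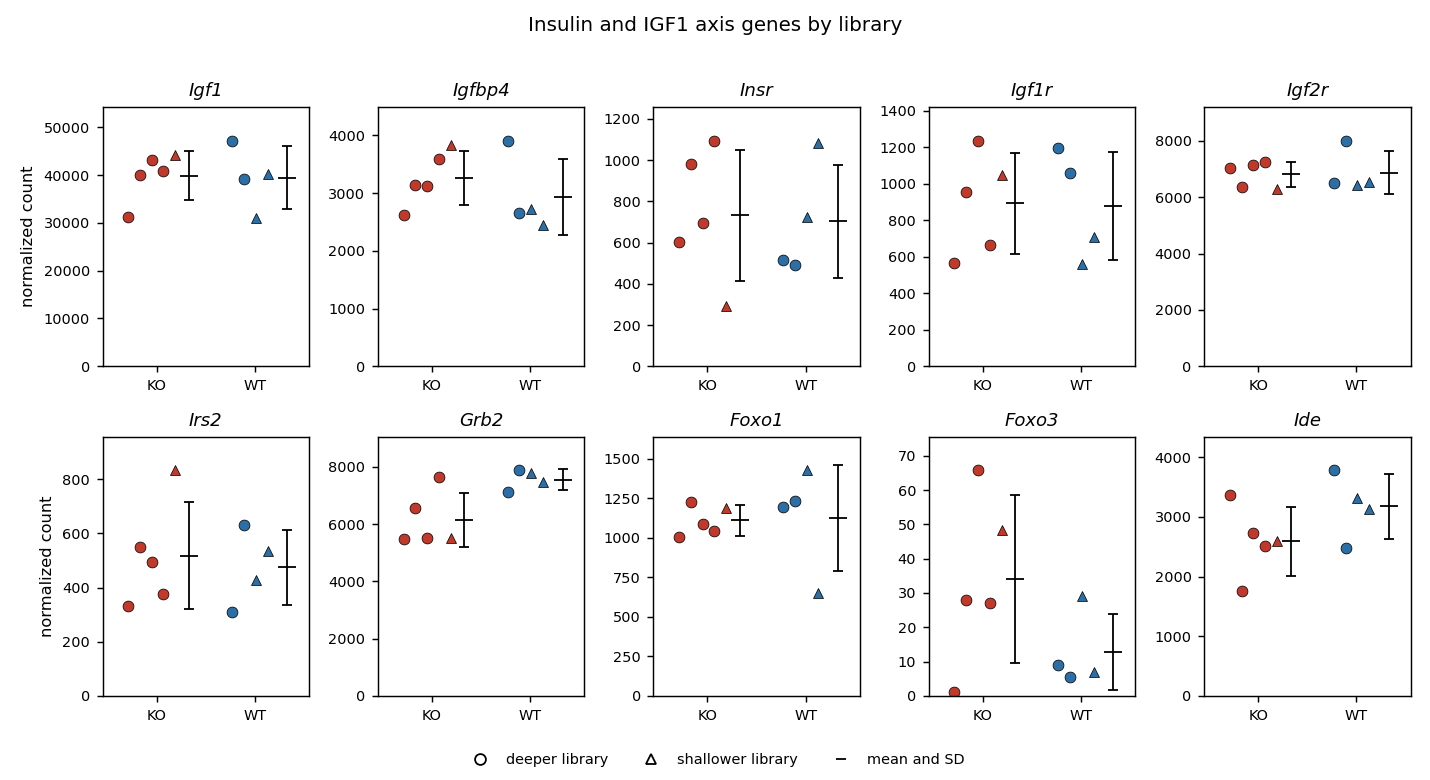
Normalized counts (linear axis from 0) of the 10 genes in each library, KO left and WT right. Circles are deeper and triangles shallower libraries, and the bar beside each group is the mean with its SD (n = 5 and 4). In each panel the KO points share part of their range with the WT points; Grb2 comes closest to separation, with 4 of 5 KO libraries below the lowest WT library at 7101.5.

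The genes covered a wide range of levels. Scaled to the merged exon length of GENCODE release M21 (build GRCm38, which mm10 names), Igf1 was the most abundant transcript, at 4004 ± 549.9 normalized counts per kilobase (SD over 9 libraries), and ranked 867 of 14395 annotated genes. Grb2 followed at 2321 ± 353, then Igf2r at 735 ± 60.3 and Igfbp4 at 705 ± 125 counts per kilobase. Ide stood at 380.1 ± 81.2, Foxo1 at 129 ± 24.9 and Irs2 at 78.8 ± 26.0. The signalling receptors were far lower, Igf1r at 52.8 ± 15.9 and Insr at 52.4 ± 20.5 counts per kilobase, and Foxo3 was last at 3.24 ± 2.87, with 95.7% of annotated genes above it. Some neighbours in that order could not be separated: Igf2r exceeded Igfbp4 in 5 of 9 libraries and Igf1r exceeded Insr in 4 of 9. Foxo1 exceeded Irs2, and Irs2 exceeded Igf1r, in 8 of 9 libraries each with overlapping ranges. The other steps of the order held in 9 of 9 libraries without overlap. These levels assume that reads fell over the whole merged length, and which exons the deposited values cover is not given in the sources used here.

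Igf1, the ligand, lies on chromosome 10 from 87858265 to 87937042 on the plus strand. It had 31165, 39949, 43176, 40794 and 44176 normalized counts in KO replicates 1 to 5, against 47144, 39267, 31029 and 40238.5 in WT replicates 1 to 4. KO replicate 1 and WT replicate 3 were the lowest and nearly equal, and the other libraries lay between 39267 and 47144 in both groups. The log2 difference was 0.02 (SE 0.12, 95% interval -0.23 to 0.27, limma adjusted p = 0.97). As a fold, that interval ran from 0.853 to 1.21 of the WT level. Within the deeper libraries the difference was -0.16, and within the shallower ones, with 1 KO library, it was 0.32. The spread of Igf1 was 12.9% of the mean in KO and 16.7% in WT, above the medians of 7.50% and 7.16% over the 416 genes within 2-fold of its level. Per kilobase, Igf1 transcript exceeded that of its receptor Igf1r 80.0-fold on average, between 59.2 and 104.5-fold over the libraries. Since fibroblasts also make IGF1 and their markers were in these libraries, how much of the Igf1 signal came from macrophages was not tested.

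Igfbp4, which encodes a carrier that binds IGFs and holds them from the receptor, lies on chromosome 11 from 99041244 to 99054392 on the plus strand. It had 2614, 3135, 3116, 3586.5 and 3831.5 normalized counts in KO replicates 1 to 5, against 3905, 2661, 2726 and 2443 in WT replicates 1 to 4. The highest value of all was WT replicate 1, and the other 3 WT libraries were lower than 4 of 5 KO libraries. KO differed from WT by a log2 value of 0.16 (SE 0.16, 95% interval -0.18 to 0.50; limma adjusted p = 0.81). The ratio of Igf1 to Igfbp4, with 1 added to each value, hardly depends on the scaling of a library at these levels. It was 11.4 to 13.9 in KO and 11.4 to 16.5 in WT. On the log2 scale it was 3.61 ± 0.12 in KO, against 3.76 ± 0.25 in WT (± SD over 5 KO and 4 WT libraries), a difference of -0.14 with an exact two-sided permutation p = 0.286 (0.571 adjusted over the 3 ratios tested). After each group's mean was taken off, the genes whose log2 values ran most like Igfbp4 over the 9 libraries, among 7453 genes at or above the median level, were Eps15, Timp2 and Cpxm2 (Pearson r = 0.940, 0.939 and 0.938), given as a description. Timp2 encodes an inhibitor of matrix metalloproteinases and Eps15 an endocytic adaptor.

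The insulin receptor gene Insr, on chromosome 8 from 3122061 to 3279617 (minus strand), varied more between libraries than between genotypes. It had 601.3, 980.4, 696.6, 1094 and 291.5 normalized counts in KO replicates 1 to 5, against 515.5, 492.6, 726.2 and 1084 in WT replicates 1 to 4. The highest KO and the highest WT library were nearly equal, and the lowest of all 9 was KO replicate 5. For Insr, KO minus WT came to a log2 difference of -0.01 (SE 0.38, 95% interval -0.82 to 0.81; limma adjusted p = 1.0). Within the 6 deeper libraries each KO value lay above both WT values and the difference was 0.70 (limma adjusted p = 0.73), whereas among the 3 shallower ones, with 1 KO library, it was -1.60. The spread was 43.4% of the mean in KO and 38.9% in WT, where genes within 2-fold of its level had medians of 27.6% and 29.1% and counting error alone would give 3.6%.

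Igf1r, which encodes the IGF1 receptor, lies on chromosome 7 from 67952827 to 68233668 (plus strand). It had 565.1, 952.5, 1235.5, 662.1 and 1046 normalized counts in KO replicates 1 to 5, against 1196, 1057, 560.5 and 709.3 in WT replicates 1 to 4. Both groups held libraries at the low end and at the high end of the range. This left a log2 difference of 0.02 (SE 0.30, 95% interval -0.62 to 0.66; limma adjusted p = 0.99), with -0.46 in the deeper and 0.73 in the shallower libraries. The ratio of Insr to Igf1r ran from 0.279 to 1.65 in KO and from 0.432 to 1.53 in WT, so that either receptor could be the more abundant in count. Its log2 value was -0.36 ± 0.99 in KO, against -0.33 ± 0.96 in WT (± SD over 5 KO and 4 WT libraries), a difference of -0.03 (exact two-sided permutation p = 0.937, 0.937 adjusted over 3 ratios). That difference was 0.34 without KO replicate 5 and 0.09, 0.20 and 0.28 without KO replicate 3, WT replicate 3 and WT replicate 4.

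**Figure D2:**
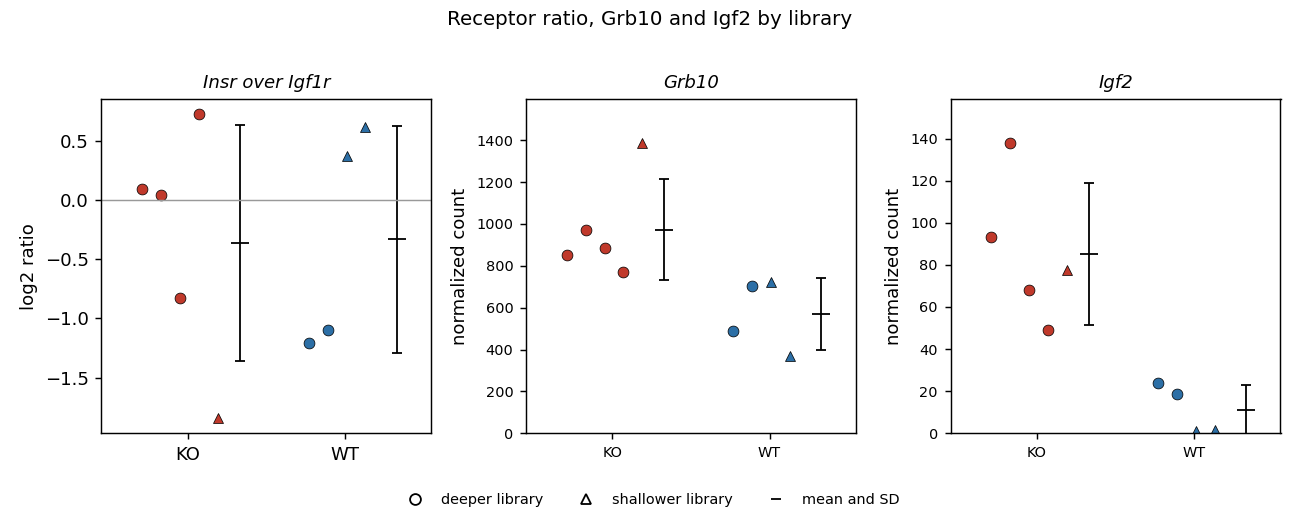
Left, log2 ratio of Insr to Igf1r; middle and right, normalized counts of Grb10 (a receptor inhibitor) and Igf2 on linear axes from 0. Points are libraries (KO left, WT right; circles deeper, triangles shallower) and bars the mean with its SD (n = 5 and 4). The ratio spans -1.84 to 0.72 in KO and -1.21 to 0.61 in WT. The Grb10 values of KO, 771.4 to 1387.5, lie above those of WT, 368.3 to 724.9, without passing the adjusted test. Ranges did not overlap in 3.15% of all genes.

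Igf2r encodes the cation-independent mannose 6-phosphate receptor, which carries lysosomal enzymes and removes IGF2 without signalling as a kinase. It lies on chromosome 17 from 12682406 to 12769664 (minus strand) and is imprinted in mice. It had 7027, 6365, 7143, 7243.5 and 6292 normalized counts in KO replicates 1 to 5, against 6522, 8004, 6424 and 6558 in WT replicates 1 to 4. These were the least variable values of the 10 genes in KO, with a spread of 6.61% of the mean, and 11% in WT, where genes of like level had medians of 11.8% in KO and 12% in WT. The log2 difference was -0.01 (SE 0.10, 95% interval -0.23 to 0.21; limma adjusted p = 0.98). The antisense gene Airn, which overlaps Igf2r, was itself low, at 12.1 to 157.5 normalized counts in KO and 41.8 to 131 in WT. The libraries were made strand-specific, and the use of strand in counting is not given in the sources used here.

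Irs2 encodes the docking protein through which these receptors reach PI3K in many cells, and its promoter holds an insulin response element that FOXO factors bind. The core letters of such elements, CAAAACA, were searched on both strands in RefSeq promoter windows (build GRCm38.p6), each running from 250 bases before a gene's start to 50 after it. They occurred in 2064 of 32851 windows (6.28%). Of the 10 genes, 9 had a window, and 2 of the 9, Irs2 and Ide, held the letters. The forkhead consensus GTAAACA was in 1199 windows (3.65%) and in 0 of the 9. The Irs2 window, at chr8:11008880-11009179 on the minus strand, is shown 5′ to 3′. The capitals, TGTTTTG, are CAAAACA read on the other strand and begin 37 bases before the RefSeq start. Whether they are the element by which Irs2 is known as a FOXO target was not tested. The whole window lies beyond the GENCODE M21 gene, whose 5′ end is at 11008458, so RefSeq and GENCODE place the start differently.
Irs2 promoter: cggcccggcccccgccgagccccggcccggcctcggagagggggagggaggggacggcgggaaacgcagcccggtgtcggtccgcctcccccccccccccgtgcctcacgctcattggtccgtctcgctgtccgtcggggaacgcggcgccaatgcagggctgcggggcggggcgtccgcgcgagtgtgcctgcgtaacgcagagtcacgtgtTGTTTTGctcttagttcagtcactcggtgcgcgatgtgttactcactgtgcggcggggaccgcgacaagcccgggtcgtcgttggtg
A match of letters describes the window and does not show binding in these cells.

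Irs2 transcript, counted on chromosome 8 from 10984681 to 11008458 (minus strand), stood at 330.8, 550.3, 495.4, 377.6 and 832.5 normalized counts in KO replicates 1 to 5, against 308.0, 630.0, 427.6 and 534.7 in WT replicates 1 to 4. KO replicate 5, which had the lowest Insr value, had the highest Irs2 value, and the other libraries of both groups were mixed. For Irs2 the KO minus WT log2 value was 0.10 (SE 0.36, 95% interval -0.67 to 0.86; limma adjusted p = 0.95). Per kilobase Irs2 averaged 78.8 normalized counts against 22.2 for Irs1, which encodes a related docking protein and ranged from 5.09 to 474.8 normalized counts in KO and from 64.9 to 290.6 in WT.

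Grb2, the adaptor that joins activated receptors to the RAS exchange factor SOS, was the member of the axis nearest to a difference. It lies on chromosome 11 from 115644045 to 115708597 (minus strand). It had 5479, 6556, 5500, 7648 and 5523 normalized counts in KO replicates 1 to 5, against 7101.5, 7872, 7787 and 7450.5 in WT replicates 1 to 4. In 4 of 5 KO libraries it was below the lowest WT library, and KO replicate 4 lay among the WT values. The mean was 6141 ± 958.5 in the 5 KO libraries, against 7553 ± 351.7 in the 4 WT libraries (± SD). KO minus WT, on the log2 scale, was -0.31 (SE 0.11, 95% interval -0.55 to -0.07). The limma p of 0.016 became 0.37 after adjustment, so the difference did not pass. It was -0.26 within the deeper and -0.46 within the shallower libraries, and between -0.39 and -0.27 when any 1 library was left out. The pattern most like that of Grb2 over the 9 libraries, group means taken off, was that of Htt, the huntingtin gene, followed by Fam173a and by Srebf2, which encodes the sterol-regulated factor SREBP2 (Pearson r = 0.962, 0.940 and 0.930, as a description).

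Foxo1 was the most abundant of the 3 measured FOXO genes (Foxo1, Foxo3 and Foxo4). It lies on chromosome 3 from 52268336 to 52353221 (plus strand). It had 1004, 1229, 1090.1, 1042 and 1188 normalized counts in KO replicates 1 to 5, against 1196.5, 1231.5, 1427 and 649.3 in WT replicates 1 to 4. The KO libraries lay close together, with a spread of 8.62% of the mean, and the WT libraries held both the highest and the lowest value, with a spread of 29.6%. Foxo1 thus had a log2 difference of 0.03 (SE 0.24, 95% interval -0.47 to 0.54; limma adjusted p = 0.98), and -0.21 without WT replicate 4 (adjusted p = 0.78).

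Foxo3, on chromosome 10 from 42181841 to 42276755 (minus strand), was near the limit of detection. It was at the floor of 1 in KO replicate 1 and at 27.9, 65.7, 27.1 and 48.4 normalized counts in KO replicates 2 to 5, against 9.14, 5.53, 29.1 and 6.82 in WT replicates 1 to 4. These values stand for 33, 80, 35 and 38 reads in KO replicates 2 to 5 and for 10, 6, 23 and 5 reads in WT replicates 1 to 4. The groups overlapped at both ends. Foxo3 had a log2 difference of 0.99 (SE 1.16, 95% interval -1.48 to 3.46; limma adjusted p = 0.83), an interval that holds changes of several fold either way. Without KO replicate 1 it was 1.86 (limma adjusted p = 0.57). Per kilobase Foxo3 averaged 3.24 normalized counts against 129 for Foxo1 and 41.0 for Foxo4. The log2 ratio of Foxo1 to Foxo3 was taken with 1 added to each value, so its 8.97 in KO replicate 1 rests on the floor. This log2 ratio was 5.64 ± 1.94 in KO, against 6.60 ± 0.84 in WT (± SD over 5 KO and 4 WT libraries), a difference of -0.95 (exact two-sided permutation p = 0.381, 0.571 adjusted over 3 ratios). Without KO replicate 1 that difference was -1.79 (exact p = 0.0286 before adjustment, the smallest that 4 libraries against 4 allow).

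Ide encodes the metalloprotease that breaks down insulin inside cells. It lies on chromosome 19 from 37268743 to 37337852 (minus strand). It had 3374, 1758, 2738, 2506 and 2599 normalized counts in KO replicates 1 to 5, against 3780, 2471, 3315 and 3139 in WT replicates 1 to 4. The highest library was WT replicate 1 and the lowest KO replicate 2, with KO replicate 1 above 3 of the 4 WT libraries. The log2 difference was -0.31 (SE 0.18, 95% interval -0.69 to 0.08; limma adjusted p = 0.65), and -0.28 and -0.31 within the deeper and shallower libraries. It was -0.17 without KO replicate 2. Of 4 further genes of insulin uptake and breakdown 0 passed, among them Ceacam1, which aids insulin clearance in liver (mean 3291 ± 500.3 normalized counts in KO against 2374 ± 222.4 in WT, ± SD, limma adjusted p = 0.26), and the endothelin-converting enzyme gene Ece1 (adjusted p = 0.58). The patterns most like that of Ide, group means taken off, were those of Polr3k, a subunit gene of RNA polymerase III, Ccdc25 and Ctdspl2 (Pearson r = 0.941, 0.932 and 0.927 over 9 libraries, as a description).

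**Figure D3:**
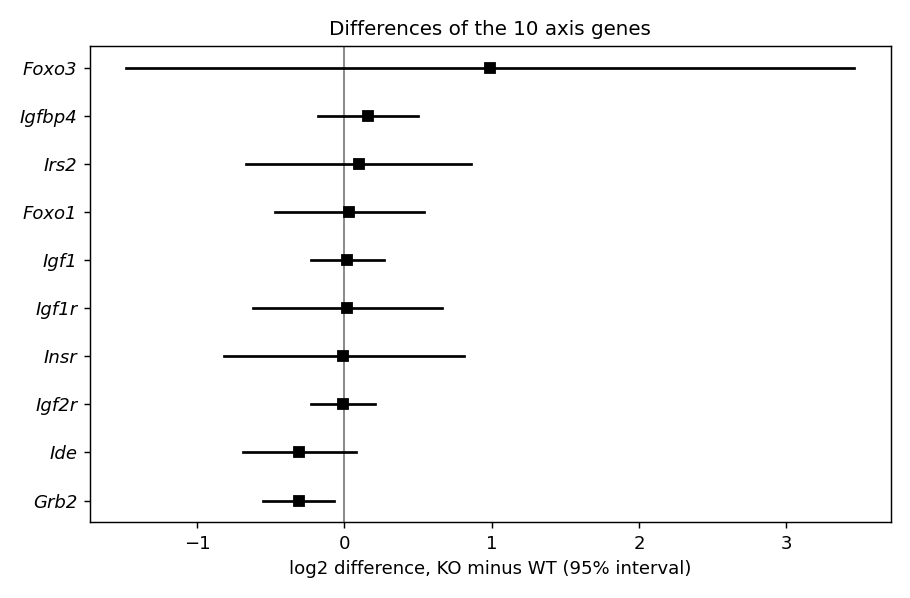
Log2 difference, KO minus WT, of the 10 genes, with 95% intervals from the fit over all genes. The intervals of 9 of the 10 genes include 0 and that of Grb2, from -0.55 to -0.07 and not adjusted for the number of genes, does not.

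Around these 10 genes, 156 further gene symbols of the pathway are reported by role, and 148 of them were in the table. Nrd1 and Nrdc, an older and a newer symbol of the same gene, are both among the 156, and the gene was measured as Nrd1. Of these 148 reported genes 0 passed limma's adjusted threshold, set beside the 0.309% of all genes tested, a share as unstable as the count behind it. At an unadjusted p under 0.05 there were 17 of the 148 (11.5%), set beside 9.14% of all genes. Their median log2 difference was -0.03, where it was 0.02 over all genes.

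Of 17 reported genes that restrain the receptors 0 passed (1 at an unadjusted p under 0.05, set beside 9.14% of all genes), with a median log2 difference of 0.15. Grb10, an adaptor that binds and inhibits the insulin and IGF1 receptors, was named for its small p within this group. It ran from 771.4 to 1387.5 normalized counts in KO, against 368.3 to 724.9 in WT (log2 difference 0.79, limma adjusted p = 0.34). These ranges did not overlap, as in 3.15% of all genes. Cblb, a ubiquitin ligase gene, ran from 1078 to 1619 normalized counts in KO, against 325.6 to 1504 in WT (log2 difference 0.74, limma adjusted p = 0.55).

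Among ligands, Ins1 and Ins2 were not among the rows used here, and Igf2, the fetal growth factor gene, was low. Igf2 had 93.0, 138, 68.2, 48.8 and 77.7 normalized counts in KO replicates 1 to 5, against 23.8 and 18.5 in WT replicates 1 and 2, the floor of 1 in WT replicate 3 and 1.36 in WT replicate 4. The ranges did not overlap, as in 3.15% of all genes, and the log2 difference of 3.56 (SE 1.01) did not pass (limma adjusted p = 0.20). Insrr, a receptor of the same family, was at the floor of 1 in KO replicates 1, 2 and 4 and in WT replicates 2 and 3. It reached 170.6 normalized counts in KO and 164.5 in WT. Its log2 difference of -0.28 (limma adjusted p = 0.97) had a 95% interval of -3.98 to 3.41, which holds large changes either way. Of 9 measured genes of IGF binding proteins, their proteases and the stanniocalcins (Stc1 and Stc2, neither carriers nor proteases), 0 passed. An unadjusted p under 0.05 was found for 2 of the 9, set beside 9.14% of all genes. Of the 9 log2 differences 9 lay above 0, set beside 52.4% of all genes, with a median of 0.88. Igfbp5 ran from 848.3 to 3837 normalized counts in KO, against 567.5 to 1473 in WT (log2 difference 1.26, limma adjusted p = 0.26), and Igfbp6 had 4553 to 10168 in KO and 2985 to 5520 in WT (0.64, adjusted p = 0.30). Both encode carriers that bind IGFs. Igfbp5 is also on the mesothelial list, of which 8 of 8 genes had a higher mean in KO, and 7 of 8 fibroblast and 7 of 8 endothelial markers did so too. The part of those cells in the Igf2 and binding protein values was not tested.

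Downstream of the receptors 0 reported genes passed in each group. Of 13 adaptors, the exchange factor genes Sos1 and Sos2 had the smallest p, with log2 differences of -0.49 and -0.26 (limma adjusted p = 0.67 and 0.81). Of 17 PI3K and AKT genes, Pik3r3, a regulatory subunit, ran from 1 to 246.5 normalized counts in KO, against 1 to 19.0 in WT (adjusted p = 0.36), and Akt2, the AKT form most tied to glucose uptake, averaged 3338.5 ± 325.7 in KO against 2820.2 ± 614.0 in WT (± SD, adjusted p = 0.63). Of 14 mTOR genes, Akt1s1, which encodes the mTORC1 inhibitor PRAS40, and Tsc1 had adjusted p = 0.53 and 0.61. Of 14 genes of the RAS and MAP kinase arm, which Grb2 feeds, the kinase genes Map2k1 and Braf had log2 differences of -0.36 and -0.22 (adjusted p = 0.52 and 0.70). The group medians lay between -0.15 and -0.03.

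Genes around the FOXO factors lay on both sides of 0. Of 10 further FOXO genes and regulators 0 passed, 5 log2 differences lay above 0 and 5 below, with a median log2 difference of 0.00. The smallest p belonged to Ywhab, a 14-3-3 protein that binds phosphorylated FOXO, and to the acetyltransferase gene Ep300 (limma adjusted p = 0.57 and 0.61). Of 20 genes described as FOXO targets 0 passed. Their log2 differences ran from -0.34 to 0.96, 9 above 0 and 11 below, with a median of -0.05. An unadjusted p under 0.05 was found for 5 of the 20, set beside 9.14% of all genes. Klf2, a factor that quiets macrophage activation, averaged 2243 ± 402.4 normalized counts in KO against 1588 ± 254.1 in WT (± SD, log2 difference 0.49, limma adjusted p = 0.33). Sod2, the mitochondrial superoxide dismutase gene, ran the other way, with a mean of 15531 ± 1224 in KO against 18821 ± 2601 in WT (-0.27, adjusted p = 0.36).

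**Figure D4:**
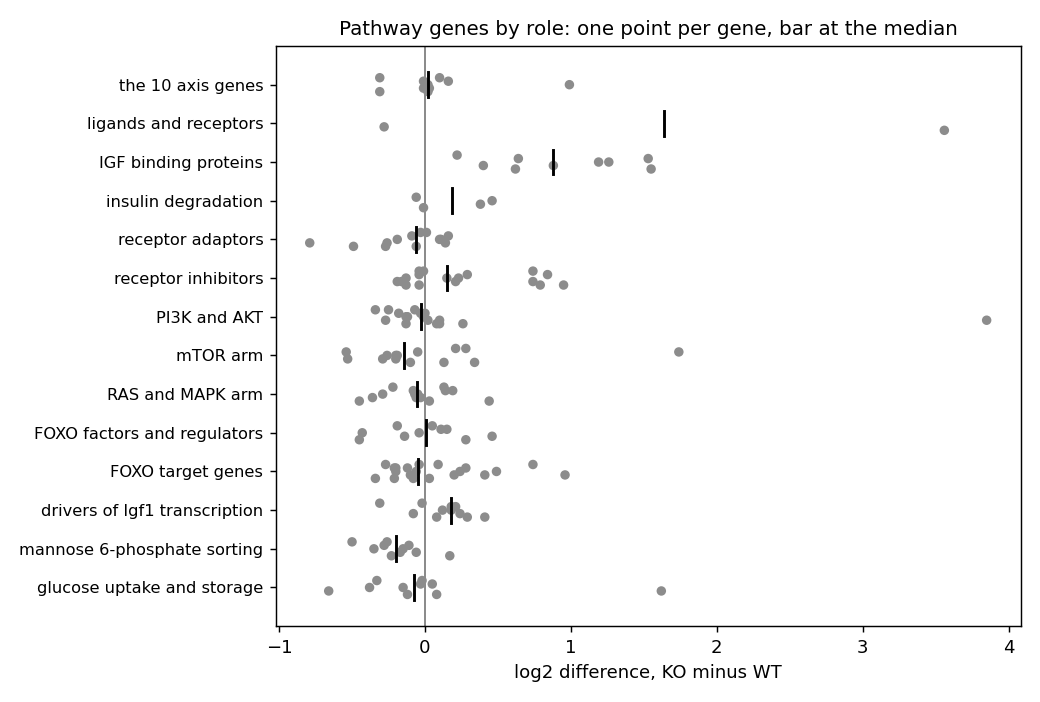
Log2 difference, KO minus WT, of each reported gene of the axis and of 13 groups of pathway genes (1 point per gene, black bar at the group median). The IGF binding protein group, which also holds proteases and stanniocalcins, lies wholly above 0, from 0.22 to 1.55, with 0 genes past the adjusted threshold. Its binding protein genes run from 0.22 (Igfbp7) to 1.26 (Igfbp5).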

How the data were processed

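RNA of sorted macrophages was sequenced in 5 KO and 4 WT libraries. HISAT, Partek, CASAVA 1.8.2 and DESeq2 are listed, without roles, per the submitters' processing notes, with the build mm10. The deposited signal is a count divided by 1 factor per library with a floor of 1. Low values were whole multiples of 1 step in each library, within 0.1 of a read in 100% of the low values, which gave the read totals. Between 6.29% and 9.91% of genes per library were at the floor, where the reads are not known. The planned edgeR and DESeq2 tests were therefore not run, and limma-voom on the recovered reads, with the floor taken as 0 reads, was an alternative.

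KO was compared with WT by limma 3.58.1 (R 4.3.3) on log2(value + 1) without a filter, with Benjamini-Hochberg adjustment over 14905 genes and a threshold of 0.05. Fold changes on this scale understate those of low genes. Ratios were taken with 1 added to each value and tested by exact permutation (SciPy 1.17.1). The fit was tested on simulated data. Exon lengths came from GENCODE M21, in which 14395 genes (96.6%) matched by symbol.

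The genes and lists were chosen with earlier results of these data known. Named were the 10 genes, genes of each pathway list past the threshold and the 2 with the smallest p in each, and, for the 3 genes of the axis with the smallest p, the 3 most correlated genes. Foxo4, Irs1 and Airn were added for comparison after their values were seen. One gene of the pathway lists is not reported here and is left out of their counts and medians.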

Additional observations from a re-analysis of the deposited data

Results flagged for a closer look

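Of 20 groups of values checked for a library far from its group, 2 stood out, and chance gives about 1 in 20. Igf2r in WT had its highest value, 8004 normalized counts, in WT replicate 2, with the other 3 WT libraries between 6424 and 6558. The log2 difference of Igf2r, KO minus WT, was 0.07 without that library and -0.01 with it. Foxo3 in WT had its highest value, 29.1 normalized counts or 23 reads, in WT replicate 3, with 5.53 to 9.14 in the other 3. The log2 difference of Foxo3 was 1.47 without that library and 0.99 with it, and neither passed the test (limma adjusted p = 0.77 and 0.83).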

How the results depend on the processing

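None of the 10 genes passed in any of the 19 alternatives. Of 190 values of these genes, 154 kept their direction and 36 took the other, all short of the threshold. All genes called numbered 46, and 5 to 38 with 1 library left out (8, 14, 5, 8 and 9 without KO replicates 1 to 5, and 38, 10, 18 and 19 without WT replicates 1 to 4), 25 with limma-voom on the reads (chosen after seeing the data), and 0 in the 6 deeper libraries (1039 at an unadjusted p under 0.05) and with the replicate block (1104). The 148 pathway genes reported gave 0 calls in each of the 19 alternatives.

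Replicate numbers did not pair the libraries (correlations of same-numbered deviations -0.014, 0.028, -0.003 and 0.045). The replicate block left out KO replicate 5, which has no WT library of its number, so its differences equal those without that library. They were -0.02 for Igf1, 0.29 for Insr, -0.05 for Igf1r, 0.02 for Igf2r and -0.10 for Irs2. For the ratio of Insr to Igf1r the difference was 0.34 (exact p = 0.5). Quantile normalization gave -0.01 for Igf1r and 0.02 for Igf2r. Depth class as a term gave -0.07 for Igf1r, -0.0043 for Foxo1 and 0.21 for Insrr. The deeper libraries gave -0.16 for Igf1, 0.70 for Insr, -0.46 for Igf1r, -0.04 for Irs2, -0.16 for Foxo1, -0.06 for Igfbp4 and 0.01 for M6pr, and limma-voom gave 0.23 for Insr and 0.06 for Igf2r. Leaving out 1 library gave -0.09 to 0.11 for Igf1, -0.18 to 0.29 for Insr, -0.17 to 0.19 for Igf1r, -0.04 to 0.07 for Igf2r, -0.10 to 0.25 for Irs2, -0.21 to 0.17 for Foxo1, -1.30 to 0.96 for Insrr, -0.32 to 0.34 for Insr to Igf1r, -1.79 to -0.55 for Foxo1 to Foxo3 and -0.22 to -0.05 for Igf1 to Igfbp4. Apart from the library left out by the replicate block, the cause of these shifts was not tested. edgeR, DESeq2 and TMM factors were not run, since reads at the floor are not known; limma-voom took them as 0. Depth limits Foxo3, with at most 80 reads in a library.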

Other observations

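Genes tied to the axis from other sides were also measured. Of 11 genes of the growth hormone, IL-4 and CSF1 routes to Igf1 transcription, 0 passed and 0 had an unadjusted p under 0.05. Their median log2 difference was 0.18. They include Socs2 and Cish, which restrain such signalling, so the median mixes genes of opposite action. The cytokine receptor genes Il4ra and Il13ra1 had the smallest p, where Il4ra averaged 5202 ± 689.0 normalized counts in KO against 4313 ± 984.7 in WT (± SD, limma adjusted p = 0.61) and Il13ra1 averaged 4330 ± 628.2 in KO against 3682 ± 598.0 in WT (adjusted p = 0.67).

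Of 10 genes of mannose 6-phosphate sorting, the route that Igf2r serves, 0 passed. An unadjusted p under 0.05 was found for 2 of the 10, set beside 9.14% of all genes. Of the 10 log2 differences 9 lay below 0, where 52.4% of all genes lay above 0. Their median was -0.20, set beside 0.02 over all genes. Vps26a, a retromer subunit gene, ran from 16589 to 19976 normalized counts in KO, against 19168 to 24405 in WT (limma adjusted p = 0.29). M6pr, the smaller mannose 6-phosphate receptor gene, had 28362 to 36681 in KO and 31689 to 43923 in WT (adjusted p = 0.54).

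Of 10 genes of glucose uptake and storage 0 passed (2 at an unadjusted p under 0.05, set beside 9.14% of all genes). The glucose transporter gene Slc2a3 ran from 417.5 to 1217 normalized counts in KO, against 50.3 to 447.9 in WT (limma adjusted p = 0.35), and the hexokinase gene Hk3 had 1829 to 4315 in KO and 3458 to 8351 in WT (adjusted p = 0.46).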
